A study of Mus musculus with 20 samples.

Results

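The genes described are Selp, Sele, Vwf, Lrg1, Bmx and Icam1, which are known from vessel subtypes and activated vessel walls, and in part also from blood cells. The genes were chosen from measured values, as genes that set the side population (SP) of skeletal muscle apart from the main population (MP) of the same tissue, so their difference between these muscle populations is given as a description with no test. Lrg1 and Bmx had their highest mean in bone marrow MP cells. A symbol match found all 6, among 8251 genes named on the array, on 7 of the 12422 probe sets that are not controls, 2 of them for Vwf, and 6 of the 7 passed the filter on dim signals.

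RNA came from sorted cells of adult C57BL/10SnJ mice, an inbred strain, and was read on 5 arrays for each of 4 groups, which are the SP and MP cells of skeletal muscle and the SP and MP cells of bone marrow (called marrow here). SP cells are the small fraction that exports a DNA-binding dye, and blood stem cells are known to be part of it in marrow. MP cells are those that keep the dye. The labels name no treatment, allele or further sorting marker for any group and do not say whether animals were pooled or whether replicates are separate animals, so p-values measure the spread between these samples only, which may be technical.

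Endothelial cells line vessels and recruit white blood cells when activated. P-selectin (Selp) is stored with von Willebrand factor (Vwf) in Weibel-Palade bodies and reaches the surface within minutes, and both proteins are also stored in platelet granules. E-selectin (Sele) and intercellular adhesion molecule 1 (Icam1) are made after cytokine signals. Selectins let leukocytes roll by binding carbohydrate ligands such as those of PSGL-1, and Icam1 holds them firmly through beta 2 integrins. Lrg1 encodes a secreted leucine-rich glycoprotein that alters TGF-beta signalling in endothelium and is also known from neutrophils and the acute phase response. Bmx encodes a Tec family tyrosine kinase of arterial endothelium and of bone marrow cells.

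Selp, Sele and Icam1 were chosen for their higher level in muscle SP cells, so no shared control is read from that level. Across the 20 arrays the Pearson correlation was 0.76 between Selp and Sele, 0.71 between Sele and Icam1 and 0.23 between Selp and Icam1. Selp was lower in marrow SP than in marrow MP cells, whereas Icam1 was higher. The 250 bases before the annotated start of these adhesion receptor genes are shown as a description. They are from RefSeq (GRCm38.p6), on the gene's strand, with capitals for matches to TGANTCA (AP-1) and TTCNNNGAA (STAT), both read on either strand. The Selp window is chr1:164115014-164115263, plus strand, the Sele window chr1:164047984-164048233, plus strand, and the Icam1 window chr9:21015690-21015939, plus strand.

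Selp: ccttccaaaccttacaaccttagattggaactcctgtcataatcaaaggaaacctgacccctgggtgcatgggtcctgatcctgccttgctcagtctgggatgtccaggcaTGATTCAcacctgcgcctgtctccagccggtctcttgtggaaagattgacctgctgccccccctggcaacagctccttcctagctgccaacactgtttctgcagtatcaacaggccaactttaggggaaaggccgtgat
Sele: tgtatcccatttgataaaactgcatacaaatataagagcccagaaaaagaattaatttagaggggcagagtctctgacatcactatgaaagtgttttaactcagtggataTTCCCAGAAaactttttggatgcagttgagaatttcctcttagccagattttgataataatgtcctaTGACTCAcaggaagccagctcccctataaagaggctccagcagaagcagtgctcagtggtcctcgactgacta
Icam1: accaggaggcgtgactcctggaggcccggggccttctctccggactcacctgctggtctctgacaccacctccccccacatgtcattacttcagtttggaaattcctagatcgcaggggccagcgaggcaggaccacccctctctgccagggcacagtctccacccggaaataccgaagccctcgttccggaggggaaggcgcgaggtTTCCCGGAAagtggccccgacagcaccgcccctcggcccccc

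An AP-1 match lay at -139 to -133 in Selp and at -73 to -67 in Sele, and a STAT match at -140 to -132 in Sele and at -42 to -34 in Icam1, counted back from the annotated start. Of 32851 promoter windows of the same length, 6.75% held the AP-1 letters and 7.02% the STAT letters. The NF-kappaB letters, GGGA and TTCC around any pair of bases (1.21% of windows), and AGATAA of GATA factors (9.99%) were matched in none of the windows of Selp, Sele, Icam1, Lrg1 and Bmx. TGGATATTCC in Sele, which overlaps the marked STAT match, and TGGAAATTCC in Icam1 differ from the NF-kappaB letters only in the first base. GAGAATTTCC in Sele also differs in a single base. Such stretches were picked by eye after the search and not listed in full. The share of windows that hold one was not counted, so nothing is read from them. Only the exact letters were searched, so the lack of a match does not mean that a site is absent. TATAAA (12.4%) was matched in Sele at -49 to -44, and AGGAAG of ETS factors (29.5%) in Selp, Sele and Lrg1. Vwf has no window in the promoter table used here.

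Array medians lay between 318.1 and 611.8 deposited signal units, and precision is limited by having 5 arrays a group. Signals are given as log2 of quantile-normalized values, with a floor at 6.71 (104.8 units, the 25th percentile of all values), below which signals have no order. Levels of different probe sets are not comparable with each other. The GAPDH control ratio (log2, 3' over 5' probe set), which rises as RNA loses its 5' end, was 3.34 to 4.79 on muscle SP arrays against 1.88 to 3.44 on muscle MP arrays, and 2.94 to 4.23 on marrow SP against 1.49 to 3.31 on marrow MP arrays. In marrow 15.4% of the 10310 probe sets tested were higher in SP cells and 14.8% were lower, and in muscle 5.1% were higher and 6.64% lower (limma, adjusted p under 0.05).

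The genes were chosen on the muscle contrast, with earlier results of these data known. In bone marrow 5 of the 6 genes changed, against 30.2% of all probe sets, and they did not move together. Vwf rose 10.6-fold in SP cells, a fold that the floor bears on because 3 of 5 MP arrays lay at it, and Icam1 rose 3.71-fold. Bmx fell 10.5-fold, Lrg1 fell 8.10-fold and Selp fell 5.06-fold. Sele did not pass. For each of the 5 genes the SP and MP values did not overlap, which held for 20.1% of all probe sets. In muscle all 6 genes were higher in SP than in MP cells on average, by 2.08-fold for Bmx to 5.99-fold for Selp, and without overlap between the arrays for 5 of them, where 4.43% of all probe sets were higher without overlap. Because that contrast chose the genes, nothing is read from this share.

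**Figure D1:**
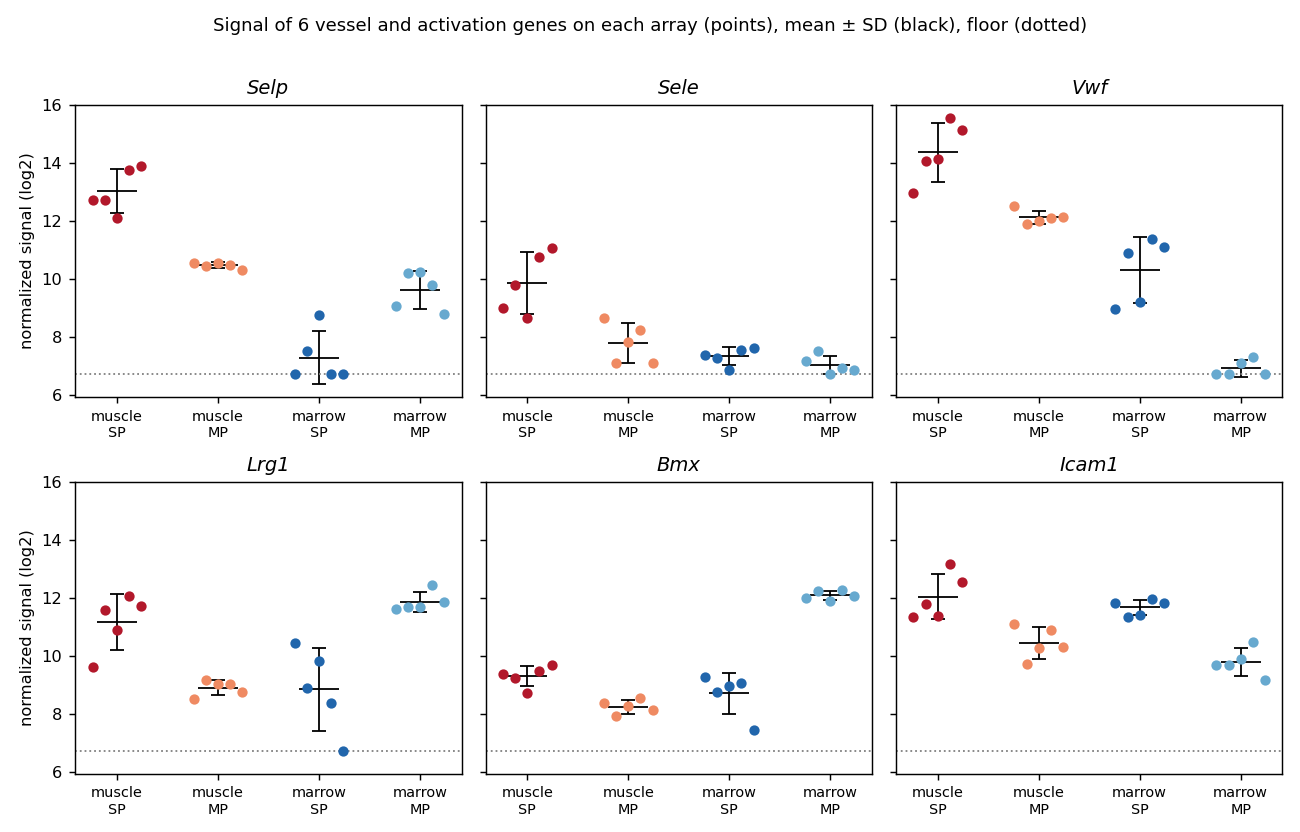
Normalized signal (log2, vertical axis) of 6 genes on each of 20 arrays (points, coloured by group), with the group mean and SD in black and the signal floor of 6.71 as a dotted line. Selp, Sele, Vwf and Icam1 have their highest mean in muscle SP cells, whereas Lrg1 and Bmx have theirs in marrow MP cells, at 11.86 and 12.09.

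Selp, the gene of P-selectin, had normalized log2 signals of 12.73, 12.74, 12.11, 13.77 and 13.91 on muscle SP arrays 1 to 5 and of 10.55, 10.44, 10.56, 10.49 and 10.31 on muscle MP arrays. Arrays 4 and 5 of muscle SP were the highest, and the MP arrays lay close together. The mean difference was 2.58 ± 0.39 on the log2 scale (standard error), the 4th highest of 10310 probe sets. In marrow the order turned. Marrow SP arrays 1, 4 and 5 were at the floor and arrays 2 and 3 read 7.52 and 8.77, while the MP arrays read 9.06, 10.22, 10.23, 9.80 and 8.80. Selp fell by 2.34 ± 0.39 in marrow SP cells (limma, adjusted p = 7.2e-05). With 3 SP arrays at the floor this fold is compressed, and it was 2.78 with a floor at the 40th percentile. The 4 groups followed the order muscle SP, muscle MP, marrow MP and marrow SP with no overlap between neighbours. The gap between muscle MP and marrow MP, 0.85 ± 0.39, was the smallest.

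Sele, the gene of E-selectin, was dim outside muscle SP cells. On muscle SP arrays it read 8.99, 9.80, 8.64, 10.75 and 11.08, and on muscle MP arrays 8.66, 7.11, 7.82, 8.25 and 7.11. Arrays 4 and 5 of muscle SP were again the highest, and SP array 3 fell just below MP array 1, so the groups overlapped. The mean difference was 2.06 ± 0.38. In marrow the SP arrays read 7.38, 7.26, 6.86, 7.54 and 7.62 and the MP arrays 7.18, 7.50, 6.71, 6.91 and 6.84. These groups overlapped within 1 log2 unit of the floor, and the difference of 0.31 ± 0.38 did not pass (adjusted p = 0.612). Muscle MP, marrow SP and marrow MP overlapped from one neighbour to the next.

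Icam1, the integrin ligand, was higher in SP cells of both tissues. Its muscle SP arrays read 11.34, 11.80, 11.38, 13.16 and 12.56 and its muscle MP arrays 11.10, 9.71, 10.28, 10.88 and 10.29, a mean difference of 1.60 ± 0.32. Arrays 4 and 5 were once more the highest, and SP array 1 lay just above MP array 1. On marrow SP arrays Icam1 read 11.83, 11.35, 11.41, 11.95 and 11.82, against 9.70, 9.67, 9.89, 10.49 and 9.15 on marrow MP arrays. All marrow SP arrays were above all MP arrays, and the rise was 1.89 ± 0.32 (adjusted p = 1.1e-04). The means of muscle SP and marrow SP differed by 0.38 ± 0.32 with overlapping arrays, and those of muscle MP and marrow MP by 0.67 ± 0.32, also with overlap.

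Vwf, the gene of the clotting protein that tethers platelets, had the widest range over the 4 groups. Its brighter probe set read 12.96, 14.06, 14.14, 15.56 and 15.15 on muscle SP arrays and 12.51, 11.90, 12.02, 12.10 and 12.13 on muscle MP arrays, a mean difference of 2.24 ± 0.44. Arrays 4 and 5 were the highest and array 1, which had the highest GAPDH ratio of all arrays at 4.79, was the lowest of the SP group. On marrow SP arrays Vwf read 8.97, 10.89, 9.20, 11.39 and 11.12, whereas 3 of 5 marrow MP arrays were at the floor and the other two read 7.10 and 7.32. Marrow SP arrays thus lay in a lower set (1 and 3) and a higher set (2, 4 and 5), all above the MP arrays. The rise in marrow was 3.40 ± 0.44 (adjusted p = 4.1e-06), the 20th largest of 10310, and its fold and rank depend on the floor. The fold was 4.99 with a floor at the 40th percentile and 14.6 with one at the 10th. All 4 groups were separated without overlap, in the order muscle SP, muscle MP, marrow SP and marrow MP, and muscle MP exceeded marrow MP by 5.22 ± 0.44, to which the same floor applies. The second Vwf probe set had deposited signals of 15.5 to 86.5 and was at the floor on all 20 arrays, so it gave no measurement to set beside the first.

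Lrg1, the secreted glycoprotein gene, was high in muscle SP and in marrow MP cells. It read 9.62, 11.59, 10.88, 12.08 and 11.72 on muscle SP arrays and 8.52, 9.15, 9.04, 9.04 and 8.76 on muscle MP arrays, a difference of 2.28 ± 0.50 without overlap. Muscle SP array 1 was the lowest of its group. In marrow the SP arrays spread from 10.44, 8.88, 9.82 and 8.37 on arrays 1 to 4 down to the floor on array 5, and the MP arrays read 11.62, 11.70, 11.69, 12.45 and 11.86. Lrg1 fell by 3.02 ± 0.50 (adjusted p = 7.2e-05), and its fold was 4.51 without the 3 arrays of highest GAPDH ratio (muscle SP 1, marrow SP 4 and marrow SP 5) and 4.56 with that ratio as a covariate, where the muscle fold was 9.14 in place of 4.85. Marrow MP and muscle SP arrays overlapped, and so did muscle MP and marrow SP arrays.

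Bmx, the kinase gene, was most of all a marrow MP transcript. Marrow MP arrays read 11.999, 12.25, 11.90, 12.26 and 12.06, and marrow SP arrays 9.27, 8.74, 8.97, 9.06 and 7.45. SP array 5 was the lowest, as for Lrg1, and every MP array was far above every SP array. Bmx fell by 3.40 ± 0.26 (adjusted p = 2.6e-09), the 23rd largest fall of 10310. In muscle the SP arrays read 9.38, 9.24, 8.73, 9.46 and 9.70 and the MP arrays 8.36, 7.91, 8.26, 8.55 and 8.14, a difference of 1.06 ± 0.26 with no overlap. It was the smallest of the 6 muscle differences and ranked 226th from the highest. Muscle SP and marrow SP arrays overlapped (difference 0.60 ± 0.26), while marrow MP exceeded muscle MP by 3.85.

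**Figure D2:**
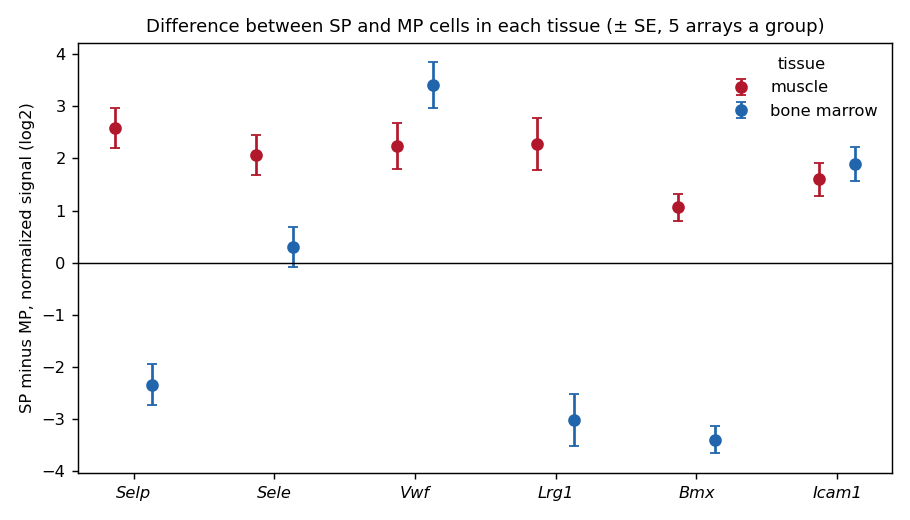
Difference between SP and MP cells in normalized log2 signal (vertical axis, ± standard error, 5 arrays a group) for 6 genes, in muscle (red) and bone marrow (blue). Muscle differences lie between 1.06 and 2.58, and marrow differences between -3.40 for Bmx and 3.40 for Vwf, with Sele near 0.

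Selp, Lrg1 and Bmx were thus higher in SP cells of muscle and lower in SP cells of marrow, each time with no overlap between the groups. Over all probe sets 29 of 10310 (0.281%) had this pattern, all of them within the 457 that were higher in muscle SP cells without overlap. The muscle side of the pattern chose the genes, so nothing is read from this share. The 29 included Ebf1, a transcription factor of B lineage and stromal cells, Hdc, the histamine-forming enzyme, and Entpd1, which degrades extracellular ATP on vessel walls. These 3 genes were singled out after their values were seen. Vwf and Icam1 were higher in SP cells of both tissues. Across the 20 arrays, which fall into 4 groups and share the normalization, the Pearson correlation was 0.80 between Sele and Vwf, 0.79 between Lrg1 and Bmx, 0.76 between Selp and Sele and -0.71 between Vwf and Bmx.

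Genes of most similar pattern were taken as the 5 probe sets of highest Pearson correlation over the same 20 arrays. For Vwf these were Abcg2 (0.98), the pump that exports the dye, Vegfc (0.98), Eng (0.96), Rgs16 (0.96) and Fam171a1 (0.96). For Selp they were Pgm2 (0.92), Entpd1 (0.92), Ebf1 (0.92), Cst3 (0.92) and Tbx2 (0.90). Sele was closest to Hoxb4 (0.95), Gpr182 (0.93), Zfp503 (0.90), Ackr1 (0.90), a chemokine receptor of venules, and Itih2 (0.88). Lrg1 was closest to Stom (0.87), Nhsl2 (0.87), Cldn1 (0.87), Sat1 (0.85) and Slc66a2 (0.85). The nearest to Bmx were Bst1 (0.96), a surface enzyme of marrow B and myeloid cells, another Cldn1 probe set (0.95), Mocos (0.94), Ces1d (0.93) and Dntt (0.93), an enzyme of early lymphocytes. Icam1 was nearest to both probe sets of Nr4a2 (0.88 and 0.87), Huwe1 (0.86), Zfp36l2 (0.86) and Dnajc3 (0.85). The probe sets of Cst3, Gpr182, Zfp503, Ces1d and Dnajc3 and the closer Nr4a2 probe set carry name suffixes of sets that can cross-hybridise or are incomplete.

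The vessel genes around the 6 were read from lists that do not contain them, with the brightest probe set for a gene. List counts are set beside all probe sets, of which 5.1% were higher and 6.64% lower in muscle SP cells. In marrow these shares were 15.4% and 14.8%, and nothing is read from a count near them. General endothelial genes were bright in both muscle populations. Of 20 measured, 3 rose in muscle SP cells (5 with array weights) and 0 fell (median difference 0.34, against 0.03 over all probe sets). Ptprb, a phosphatase of vessel walls, rose by 1.77 ± 0.24, Eng, a TGF-beta co-receptor, by 1.06 ± 0.22, and Emcn, a sialomucin of veins and capillaries, by 0.80 ± 0.25. Cdh5, the cadherin of endothelial junctions, had means of 14.49 and 14.44 in muscle SP and MP cells (0.05 ± 0.33, adjusted p = 0.960). The VEGF receptor gene Kdr gave -0.25 ± 0.25 (0.598), Pecam1 0.30 ± 0.27 (0.558), Icam2 0.38 ± 0.20 (0.2498), Tek 0.58 ± 0.26 (0.173) and Tie1 0.82 ± 0.30 (0.0781). The summed signal of the 20 genes was 17.40 to 17.90 (log2) on muscle SP and 17.20 to 17.46 on muscle MP arrays, and its part in the differences of the 6 genes was not tested. In bulk RNA of sorted cells a change in the share of a cell type and a change of RNA level within cells cannot be told apart.

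In marrow, 10 of these 20 endothelial genes rose in SP cells and 1 fell (median 0.74, against 0.02 over all probe sets), and the count was 6 with a floor at the 40th percentile. Tal1 (2.72 ± 0.28), a factor of blood and vessel precursors, Emcn (2.61 ± 0.25), Tie1 (at least 2.59 ± 0.30, since marrow MP arrays were at the floor) and Eng (1.88 ± 0.22) rose most, and the factor gene Ets1, named after its value was seen, fell (-1.50). Kdr rose by 1.59 ± 0.25 and Tek by at least 1.20 ± 0.26, a call lost with the floor at the 40th percentile (adjusted p = 0.462). Cdh5 (7.28 against 6.84, adjusted p = 0.353), Icam2 (0.45 ± 0.20, 0.0924) and Pecam1 (0.08 ± 0.27, 0.875) did not pass. Marrow SP cells are known to include blood stem cells, and whether the rises of this list come from those or from vessel cells was not tested. The summed signal was 13.84 to 14.50 on marrow SP and 13.07 to 13.27 on marrow MP arrays, beside which Vwf and Icam1 rose and Selp fell.

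Vessel subtypes were read in the same way. Of 7 venous and postcapillary genes, 3 rose in muscle SP cells and 0 fell (median 0.80). Ackr1 rose by 2.32 ± 0.59, or by 3.11 without muscle SP 1, and it missed the threshold with only the groups compared (adjusted p = 0.124). Il1r1, the interleukin 1 receptor, rose by 1.03 ± 0.29 and this call did not survive leaving out muscle SP 4 (0.0769), SP 5 (0.0724), MP 2 (0.0603) or MP 4 (0.0511), which each left 1 call in the list. The Emcn call was lost without muscle SP 2, 3, 4 or 5 or any 1 of the 5 MP arrays (adjusted p up to 0.0949). It was also lost with the GAPDH covariate (0.0573). Of 13 arterial genes 2 rose in muscle (4 with a floor at the 40th percentile), Alox12 (1.18 ± 0.25) and Notch1 (1.07 ± 0.28), and 0 fell. Alox12 is also counted among the platelet markers, and its call was lost with only the groups compared (adjusted p = 0.050006). Of 10 capillary genes 1 rose, the fatty acid transporter gene Cd36 (0.66 ± 0.16), a call lost with median scaling (0.0614), a floor at the 10th percentile (0.228) or the GAPDH covariate (0.0509). Of 5 lymphatic genes 3 fell and 0 rose, Lyve1 (-2.42 ± 0.27), Reln (-1.41 ± 0.26) and Pdpn (-0.93 ± 0.20). Markers of monocytes and macrophages (9 of 11) and of fibroblasts (8 of 11) fell in the same contrast, and their part in these falls was not tested.

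In marrow 4 of the 13 arterial genes rose and 2 fell. Hey1, a Notch target, rose by 2.90 ± 0.37 and Efnb2 by 1.94 ± 0.37, while Cxcr4 (-1.30 ± 0.29) and Nrp1 (-1.11 ± 0.20) fell. Emcn and Il1r1 (1.13 ± 0.29) rose and Vcam1 (-1.43 ± 0.42) fell among the 7 venous genes, and the Il1r1 call was lost with a floor at the 40th percentile (adjusted p = 0.104). Fabp4 (2.12 ± 0.24) and Tcf15 (1.14 ± 0.30) rose and Lpl (-1.14 ± 0.32) fell among the 10 capillary genes, of which 6 rose with no further normalization. The Tcf15 call was lost with a floor at the 40th percentile (0.212) or the GAPDH covariate (0.0618). The Lpl call was lost with no further normalization (0.0889) or only the groups compared (0.0813). Without the 3 arrays of highest GAPDH ratio both were lost (0.0552 for Tcf15 and 0.0537 for Lpl). Of 5 lymphatic genes Lyve1 (at most -2.59 ± 0.27) and Reln (-1.96 ± 0.26) fell.

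**Figure D3:**
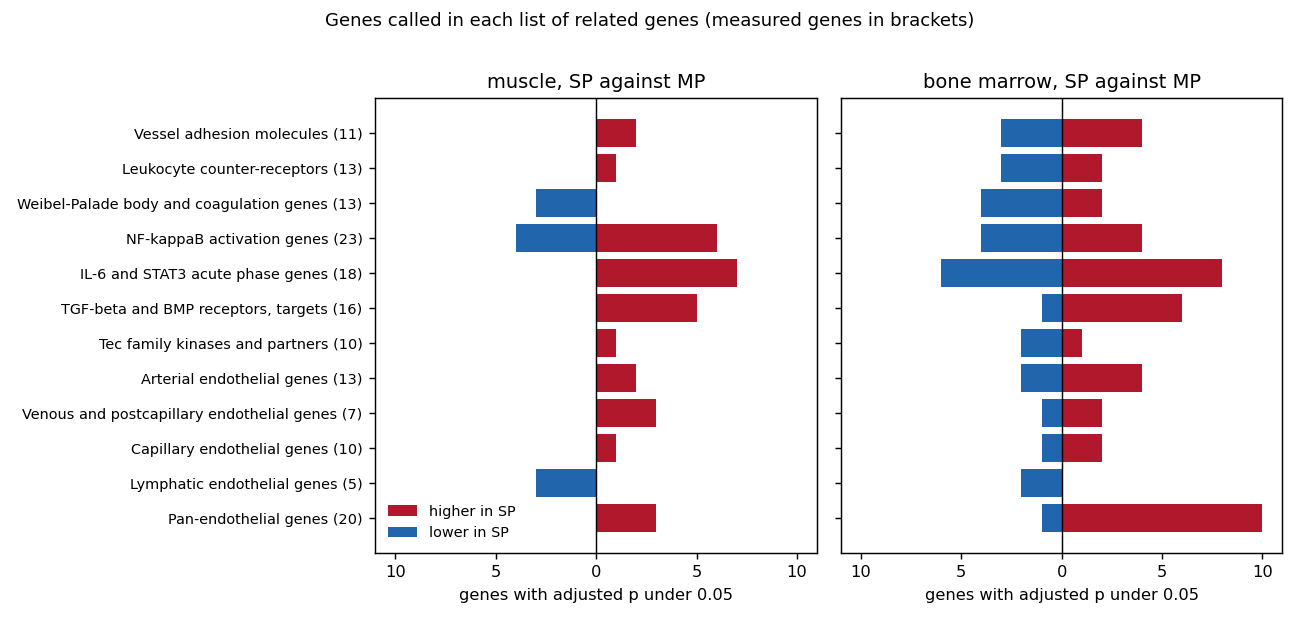
Number of genes with adjusted p under 0.05 (horizontal axis) that were higher in SP cells (red, right) or lower (blue, left), in muscle and bone marrow, for 12 lists of related genes, with the number measured in brackets. In muscle 7 of 18 IL-6 and STAT3 genes rose and 0 fell, and in marrow 10 of 20 pan-endothelial genes rose and 1 fell.

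Of 11 measured beside Selp, Sele and Icam1, 2 rose in muscle SP cells and 0 fell (median 0.01). The count of rises was 0 without muscle SP 3 or MP 5 or with the GAPDH covariate, and 1 without muscle SP 2, 4 or 5 or MP 1, 2, 3 or 4. These were Emcn and Cx3cl1 (0.93 ± 0.25), a membrane-bound chemokine that missed the threshold without muscle SP 3 (adjusted p = 0.0515) or MP 5 (0.0601). Vcam1, the other large integrin ligand of activated vessels, had means of 12.99 and 13.12 in muscle (-0.13 ± 0.42, adjusted p = 0.909). In marrow 4 rose and 3 fell. Emcn, F11r (2.27 ± 0.26), a junction protein, and the sialomucin gene Cd34 (1.85 ± 0.25) rose most, and Vcam1 fell. With the GAPDH covariate or no further normalization 1 of the list fell in place of 3.

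On the leukocyte side, 1 of 13 counter-receptor genes rose in muscle SP cells and 0 fell. Itgax, an integrin chain of dendritic cells, rose by 0.76 ± 0.23, but its call was lost without muscle SP 1, 2 or 3 or MP 1, 2 or 3 (adjusted p up to 0.113). It was also lost with the GAPDH covariate (0.153). Selplg, the gene of the P-selectin ligand PSGL-1, gave 0.78 ± 0.29 (0.0878) in muscle and -0.21 ± 0.29 (0.650) in marrow, and passed in muscle without SP 4 (0.0493) or SP 5 (0.0251) and with array weights (0.0464). It passed as a fall in marrow with median scaling (0.00989). In marrow the integrin genes Itgav (2.38 ± 0.26) and Itgb1 (1.00 ± 0.16) rose, the latter named after its value was seen. Itgb2 (-2.35 ± 0.28) and Itgam (at most -2.28 ± 0.16), whose products form receptors of Icam1, and Cd44 (-1.61 ± 0.24) fell in the cells in which Icam1 rose.

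Of 13 genes of Weibel-Palade bodies and coagulation, 3 fell in muscle SP cells and 0 rose (3 at an unadjusted p under 0.05). Rises numbered 2 without muscle SP 3 or with array weights, and 1 without muscle SP 1, SP 2 or MP 1. Cd63, a membrane protein of these and other storage organelles, fell by 2.21 ± 0.32, the coagulation starter gene F3 by 1.84 ± 0.19 and the protease gene Ctsb by 0.71 ± 0.18, the last lost with the GAPDH covariate (adjusted p = 0.0837). In marrow 2 rose and 4 fell. Procr, the protein C receptor and a marker of blood stem cells, rose by 3.37 ± 0.24 and Plat by 1.15 ± 0.18, a call lost with a floor at the 40th percentile (0.478). Rab3d (-2.26 ± 0.36), a secretory vesicle GTPase gene, and Cd63 (-2.13 ± 0.32) fell most. With no further normalization 4 rose in place of 2.

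Among signalling genes, 7 of 18 IL-6 and STAT3 acute phase genes rose in muscle SP cells and 0 fell (median 0.61). The largest were Junb (1.38 ± 0.30), Osmr (1.37 ± 0.18), Il6ra (1.34 ± 0.34) and Il6st (1.09 ± 0.30), the last 3 encoding receptor chains of the IL-6 family. The count was 4 without muscle SP 5 or MP 2. Il6st no longer passed without muscle SP 4 (adjusted p = 0.0642), SP 5 (0.0601), MP 2 (0.0563) or MP 3 (0.0536). With only the groups compared both Il6st (0.0789) and Il6ra (0.0820) missed the threshold. In marrow 8 of the 18 rose and 6 fell, and 3 rose with median scaling. Lcn2 (-2.41 ± 0.57), Hp (-1.83 ± 0.33) and Cebpd (-1.27 ± 0.30) fell there together with Lrg1, while Il6st rose by 1.52 ± 0.30.

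Of 23 NF-kappaB activation genes, 6 rose and 4 fell in muscle SP cells (median 0.22), where Sele and Icam1 were higher. Csf3 (1.56 ± 0.21) and Bcl3 (1.21 ± 0.28) had the largest rises, and the chemokine gene Ccl7 (-1.91 ± 0.30) and the prostaglandin synthase gene Ptgs2 (-1.29 ± 0.40) the largest falls. The Bcl3 and Ptgs2 calls were lost with the GAPDH covariate (adjusted p = 0.101 and 0.290). The Ptgs2 call was also lost without muscle SP 1, 2, 3 or 4 or MP 1, 3 or 4 (up to 0.134). The count of 4 falls was 2 without muscle SP 1, 3 or 4 or MP 1, 2 or 4, and 1 without MP 3. In marrow 4 rose and 4 fell, near the shares of all probe sets (15.4% higher and 14.8% lower). Traf1 (at least 2.41 ± 0.26) was among the rises, and Tnfaip2 (-1.83 ± 0.30), Vcam1 and Cd40 (-1.16 ± 0.27) among the falls. The count of 4 rises was 1 without marrow SP 1 or SP 2 and 2 without MP 3, 7 where arrays were not normalized again and 1 where they were scaled to a common median.

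TGF-beta and BMP genes of endothelium, which Lrg1 is known to act on, included 5 rises and 0 falls among 16 in muscle SP cells. These were Smad7 (1.26 ± 0.35), Id1 (1.07 ± 0.33), Eng, Id3 (0.91 ± 0.21) and Smad6 (0.90 ± 0.19), the last named after its value was seen, that is 4 BMP or TGF-beta target genes and 1 co-receptor gene. The count was 3 without muscle SP 3 or MP 2, and 1 gene fell without SP 4 or SP 5. The Smad7 call was lost without either (adjusted p = 0.0593 and 0.0664), and the Id1 call without muscle SP 1, 2 or 3 or any 1 MP array (up to 0.0916). In marrow 6 rose and 1 fell. Smad7 (2.05 ± 0.35), Eng and Id3 (1.07 ± 0.21) rose, and Acvrl1, a BMP receptor gene of endothelium, fell by 2.18 ± 0.27. The count of falls was 2 without marrow SP 4, SP 5 or MP 5.

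Among 10 Tec family kinases and partners, Tec itself rose in muscle SP cells by 1.34 ± 0.26, beside a Bmx difference of 1.06, and 0 fell. The count of rises was 2 without muscle SP 4 or SP 5, and 1 gene fell without muscle SP 4, marrow SP 5 or marrow MP 2. In marrow Txk, a kinase of T and NK cells, rose by 3.05 ± 0.45. Btk, the kinase of B and myeloid cells, fell by 2.04 ± 0.30 with Bmx, and Pik3cd fell by 0.86 ± 0.32. The Pik3cd call had an adjusted p of 0.0487 and was lost under 24 of the 32 alternatives in which the gene was kept, including the omission of any 1 muscle array and of marrow SP 1, SP 4, MP 2, MP 3 or MP 4.

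Markers of other cell types also differed between the populations. T and NK lymphocyte markers were higher in SP cells, with 5 rises in muscle and 8 in marrow among 10 and 0 falls. The muscle rises were led by Ccl5 (5.24), Gzmb (2.87), Gzma (2.87) and Klrd1 (at least 2.47), and the marrow rises by Ccl5 (4.01), Cd3e (3.71), Cd3g (3.38) and Klrd1 (2.60). Summed over the list, signals were 11.996 to 15.70 on muscle SP and 10.29 to 10.75 on muscle MP arrays, and Cd3e and Cd3g, of the T cell receptor complex, never left the floor in muscle. In marrow the sums were 15.43 to 16.42 for SP and 12.16 to 12.96 for MP arrays. Of 11 monocyte and macrophage markers, 9 fell in muscle and 6 in marrow, and 0 rose in either. Mrc1 (-2.96), Lyz2 (-2.89), Ctss (-2.87) and C1qa (-2.51) fell most in muscle. The Lyz2 call was lost there with only the groups compared (adjusted p = 0.102) or the GAPDH covariate (0.0685). Lyz2 gave -3.62 without muscle SP 2, -2.28 without SP 4 and -2.27 without SP 5, and Ctss gave -2.24 without SP 4. In marrow Adgre1 (-2.64), Mpeg1 (-2.40) and Cd14 (-2.28) were among the falls. Of 11 fibroblast markers 8 fell in muscle (5 with no further normalization), with Dpt (-2.69), Serpinf1 (-2.65), Lum (-2.38) and Gsn (-2.16) the furthest. Summed fibroblast signals were 16.08 to 16.83 on muscle SP and 17.50 to 18.10 on muscle MP arrays. Of 7 satellite cell markers 4 fell, Fgfr4 (-3.74), Calcr (-3.59), Myf5 (-3.39) and Cdh15 (-1.42), and 1 rose, Msx1 (1.02 ± 0.32), named after its value was seen, with that rise lost without muscle SP 1 or SP 3 or MP 1, 2, 3 or 4. Of 10 pericyte and smooth muscle markers 2 fell, Kcnj8 (-1.24) and Abcc9 (-0.82), and 0 without muscle SP 4 or MP 3. The count was 1 without SP 5, MP 2 or MP 5. The part of these markers in the differences of the 6 genes was not tested.

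Platelets store P-selectin and von Willebrand factor, so their markers were read beside both genes. In muscle the platelet factor gene Pf4 was close to the floor, at 6.72 in SP and 6.84 in MP cells, Gp1bb and Itgb3 read the floor throughout muscle, and Gp9 gave 0.29 ± 0.44 (adjusted p = 0.768). The summed signal of the 9 markers on the array was 12.03 to 13.74 on muscle SP arrays and 13.70 to 14.32 on MP arrays. F2r, the thrombin receptor gene, is among them with means of 12.31 in SP and 13.83 in MP cells. The median sum on muscle MP arrays was 13.91, so that sum was mostly F2r, while Pf4, Gp1bb and Itgb3 lay at or near the floor. The sums are therefore not read as a level of platelets. The part of these markers in the Selp and Vwf differences was not tested. Of the 7 that passed the filter, Alox12, the same call as among the arterial genes, rose and F2r fell (-1.51 ± 0.33) in muscle. F2r rose in marrow (2.75 ± 0.33). It was the only call of the list there, and Pf4 (-0.46 ± 0.20, 0.0916) and Gp9 (-0.30 ± 0.44, 0.674) did not pass. The summed signal, which includes F2r, was 14.41 to 15.35 on marrow SP and 13.66 to 14.12 on marrow MP arrays. These sums too are not read as a level of platelets. No probe set with the single symbol Itga2b was found.

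Neutrophils also carry Lrg1. Of 10 neutrophil markers 3 fell and 0 rose in marrow SP cells, Mmp9 (-2.97 ± 0.48), Lcn2 and Elane (-0.99 ± 0.23). Mmp9 fell by 2.35 without marrow SP 5, and without the 3 arrays of highest GAPDH ratio Mmp9 fell by 2.22 and Lcn2 fell by 1.63. Their summed signal was 16.78 to 18.18 on marrow SP and 18.78 to 18.98 on marrow MP arrays, and in muscle 10.72 to 15.59 on SP against 10.85 to 13.17 on MP arrays. In muscle 0 of 10 passed in limma, and 4, all higher in SP cells, at an unadjusted p under 0.05. There 3 rose without muscle SP 5, 1 without SP 4 or MP 2, and 2 with array weights. The count in marrow was 8 with only the groups compared and 5 with median scaling. The part of these markers in the Lrg1 difference was not tested. Of 5 erythroid markers 2 rose in marrow SP cells (1 without marrow SP 2 or SP 3) and 0 passed in muscle (1 higher at an unadjusted p under 0.05).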

How the data were processed

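The deposited table holds signal intensity values on a linear scale, one for each of 12488 probe sets and 20 Affymetrix arrays, per the file headers and the values. How the authors summarised and scaled them is not known from the labels or headers. The 66 control probe sets were left out of tests. Arrays were quantile normalized, values under the 25th percentile were set to it, log2 was taken, and only the 10310 probe sets that exceeded it on 5 or more arrays were tested. This removes overall differences between groups and compresses folds of dim genes.

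One limma model (version 3.58.1, R 4.3.3) covered all 4 groups (two-sided, Benjamini-Hochberg over all probe sets, threshold 0.05), and the code was tested on simulated data. The members and lists were chosen with earlier results of these data known. Named are every member, up to 4 called genes of largest change from each list (for some lists fewer are printed), a fixed set of endothelial and platelet genes whatever their values, and the 5 nearest patterns, with exceptions marked in the text. Symbols come from the platform annotation and matched RefSeq (GRCm38.p6) by gene identifier for 10817 probe sets. Alternatives varied the scaling, floor, filter, model and arrays. Figures were drawn with matplotlib 3.10.9.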

Additional observations from a re-analysis of the deposited data

Results flagged for a closer look

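Selp, Lrg1 and Bmx differed between SP and MP cells in opposite directions in the tissues. Every muscle SP array was above every muscle MP array, and every marrow SP array was below every marrow MP array. The marrow differences on the log2 scale were -2.34 for Selp, -3.02 for Lrg1 and -3.40 for Bmx. The difference between tissues was not tested, because the muscle contrast had chosen these genes. No array stood apart from the others of its group in any of the 24 combinations of gene and group by Dixon's ratio at its critical value of 0.71, but array 5 of marrow SP for Bmx (0.708) and array 4 of marrow MP for Lrg1 (0.707) came close to it.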

How the results depend on the processing

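Under 33 alternatives, 5 of the 6 genes passed in marrow each time, each with its direction, and Sele never passed (adjusted p from 0.0885 to 1). The highest adjusted p among the 5 was 0.00551, for Lrg1 with only the groups compared. All 6 muscle differences kept their sign in every alternative in which the gene was measured; Sele was not kept with a filter at the median. Probe sets called in marrow numbered 3113, and between 2665 and 3308 without single arrays. In muscle 1211 were called, and between 902 and 1309 without single arrays. Higher calls made up 50.9% in marrow, 72.2% with no further normalization (4006 called, median of all probe sets 0.31) and 32.9% with median scaling. With no further normalization Selp fell by 2.06, Lrg1 fell by 2.84 and Bmx fell by 3.18, and Vwf rose by 3.69 and Icam1 by 2.08. Same-numbered arrays shared only a number, with correlations of deviations of 0.07 to 0.21 in muscle and -0.14 to 0.21 in marrow, and 1 and 2 of 10 arrays closest to their own number. With the replicate number as a block 3331 probe sets were called in marrow, 1396 in muscle and 5 of the genes, and Selplg passed in muscle (adjusted p = 0.0473). Of 104 calls of the list genes that the naming rule picks, not all of them printed and without Itgb1, Ets1, Smad6 and Msx1, 27 were lost in at least 1 alternative and 0 reversed.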
